A study of Mus musculus with 8 samples.

Results

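The genes described here encode the subunits of AMPA and kainate receptors, 9 of the 55487 genes in the deposited tables: the 4 AMPA subunit genes Gria1 to Gria4 and the 5 kainate subunit genes Grik1 to Grik5. They were chosen by symbol as the full set of both families, and all 9 had enough reads to be tested. RNA was sequenced from the mouse dorsomedial hypothalamus (DMH) after knockdown by a short hairpin RNA. In the group shPpp1r17 (4 libraries) the hairpin was directed at Ppp1r17, which encodes an inhibitor of protein phosphatases, and in the group shfLuc (4 libraries) at firefly luciferase, which mice lack. Sample titles carry the tag LMD, which the labels do not explain. Strain, age, sex, the vector and the cells it reached are not given in the labels, which do not say either whether each library came from its own animal. The p-values thus rest on library-to-library variation, part of which may be technical.

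AMPA and kainate receptors are cation channels opened by glutamate, each assembled from several subunits around a central pore. AMPA receptors carry most of the fast excitatory current at central synapses. Kainate receptors act on both sides of the synapse, and their GluK4 and GluK5 subunits (Grik4 and Grik5) form channels only together with GluK1, GluK2 or GluK3 (Grik1, Grik2 and Grik3). The subunit mix sets conductance and calcium entry. In the pore loop, 1 glutamine codon, the Q/R site, is recoded to arginine by RNA editing in nearly all Gria2 transcripts of the adult brain and in part of the Grik1 and Grik2 transcripts. AMPA receptors that hold edited GluA2 (Gria2) let through little calcium.

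The stretch around that codon is shown because the share of Gria2 among the AMPA transcripts is a main result, and because it shows how alike the genes are at the pore. Each line gives the coding sequence from GENCODE M21 (GRCm38), 39 bases on the transcript's strand, with the Q/R codon in capitals.
Gria1 (chr11:57243076-57243114, plus strand): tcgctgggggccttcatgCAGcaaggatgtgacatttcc
Gria2 (chr3:80706893-80706931, minus strand): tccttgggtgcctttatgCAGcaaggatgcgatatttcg
Gria3 (chrX:41610247-41610285, plus strand): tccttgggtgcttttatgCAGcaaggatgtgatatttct
Gria4 (chr9:4464119-4464157, minus strand): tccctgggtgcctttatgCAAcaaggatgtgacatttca
Grik1 (chr16:87936102-87940562, minus strand): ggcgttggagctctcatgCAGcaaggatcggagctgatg
Grik2 (chr10:49240783-49244349, minus strand): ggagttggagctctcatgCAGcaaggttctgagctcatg
Grik3 (chr4:125691189-125693975, plus strand): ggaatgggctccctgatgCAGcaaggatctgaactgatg
Grik4 (chr9:42547605-42547643, minus strand): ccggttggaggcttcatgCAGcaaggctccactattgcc
Grik5 (chr7:25022479-25022517, minus strand): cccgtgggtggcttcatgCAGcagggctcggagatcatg
The stretches of Grik1, Grik2 and Grik3 cross an intron, which is left out. Every gene encodes glutamine at this site in the genome, so that arginine can arise there only by editing. Against Gria2, 32 to 36 of the 39 bases were identical in the other AMPA genes and 22 to 27 in the kainate genes. The codon is residue 607 of the Gria2 protein, in exon 11 of the transcript used (chr3:80706911-80706913, minus strand), and residue 621 of the Grik2 protein, in exon 13 of the transcript used (chr10:49244329-49244331, minus strand). The tables hold reads per gene, so neither editing nor splice forms were measured.

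The targeted gene was lower in every shPpp1r17 library, by very different amounts. Ppp1r17 had 87.7, 2.07, 3.10 and 87.2 CPM (counts per library total, scaled with TMM factors) in shPpp1r17 1 to 4, against 147, 161, 161 and 171 CPM in shfLuc 1 to 4. The groups did not overlap, but with this spread within shPpp1r17 the log2 fold change of -1.83 (SE 0.80) did not pass (adjusted p = 0.197 in edgeR). The shPpp1r17 libraries held 54.8%, 1.29%, 1.94% and 54.5% of the shfLuc mean. Libraries 2 and 3 stand apart from 1 and 4, and values are given library by library for that reason. All 8 marker genes listed for the dorsomedial hypothalamus were detected and tested, and their summed level was 252 to 451 TPM in shPpp1r17 and 478 to 596 TPM in shfLuc. That sum includes the targeted Ppp1r17 itself, at 1.63 to 69.3 TPM in shPpp1r17 and 118 to 140 TPM in shfLuc. The gap between the sums thus mixes Ppp1r17 with the other markers. Brs3 had 16.2, 3.43, 3.88 and 13.6 TPM in shPpp1r17 1 to 4, against 19.0 to 26.1 TPM in shfLuc. Its log2 fold change was -1.18 (adjusted p = 0.0910 in edgeR). Cck gave -0.75 (adjusted p = 0.132 in edgeR), while Prlhr and Gpr50 gave 0.33 and 0.14. A fold change below 0 was seen for 6 of the 8, with a median of -0.39 over the list. Of these 8, 0 passed in edgeR or DESeq2 and 3, Ppp1r17 among them, had an unadjusted p under 0.05 in edgeR. The 4 ventromedial markers summed to 2.22 to 7.05 TPM in shPpp1r17 and 2.10 to 9.56 TPM in shfLuc, with 0 past the threshold in edgeR or DESeq2 and 0 at an unadjusted p under 0.05. Library totals ran from 25637389 to 33907984 estimated reads in shPpp1r17 and from 23070147 to 25749643 in shfLuc.

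AMPA transcripts far outnumbered kainate transcripts in both groups. In TPM, which takes gene length into account, the 4 AMPA genes summed to 266, 249, 226 and 241 in shPpp1r17 1 to 4, against 283, 307, 304 and 286 in shfLuc 1 to 4. The 5 kainate genes summed to 24.4, 20.0, 19.2 and 23.0 TPM in shPpp1r17 1 to 4, against 30.0, 26.2, 26.7 and 27.6 TPM in shfLuc 1 to 4. For both sums every shPpp1r17 library lay below every shfLuc library, as in 9.85% of single tested genes in TPM. At the median of all genes, and for every subunit gene but Grik3, the fold change on log2(TPM + 1) was lower than in edgeR. The median log2 fold change of all genes was -0.06 on log2(TPM + 1), against 0.00427 in edgeR. On that TPM scale Gria2 gave -0.25 and Gria4 -0.26, against -0.14 and -0.09 in edgeR. The ratio of AMPA to kainate TPM was 11.4 ± 0.887 in shPpp1r17 and 10.7 ± 1.05 in shfLuc (SD, n = 4 each), with overlapping libraries.

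Gria2 led in all libraries. In shfLuc its mean was 178 TPM, followed by Gria1 with 83.6, Gria3 with 19.5, Gria4 with 13.6, Grik2 with 12.6, Grik1 with 6.60, Grik3 with 3.59, Grik5 with 2.92 and Grik4 with 1.85 TPM. Neighbours in this order did not overlap between libraries, with the exceptions of Gria4 and Grik2, where 3 of 4 libraries had more Gria4, and Grik3 and Grik5, where 3 of 4 had more Grik3. In shPpp1r17 the order of the means was the same, apart from Grik5 (2.82 TPM) and Grik3 (2.67 TPM), whose libraries overlapped and changed places; Gria4 and Grik2, and Grik3 and Grik4, overlapped as well. Grik5 rested on the fewest reads, 128 to 199 per shPpp1r17 library and 100 to 196 per shfLuc library, and Gria2 on the most, with 13969 to 19661 per shPpp1r17 library and 14242 to 15846 per shfLuc library. The place of Grik5 also depends on its length: the deposited effective length was well below the deposited length. With reads divided by the deposited length, its share of the kainate sum was 10.2% in shPpp1r17 and 8.30% in shfLuc; by TPM it was 13.0% in shPpp1r17 and 10.5% in shfLuc.

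**Figure D1:**
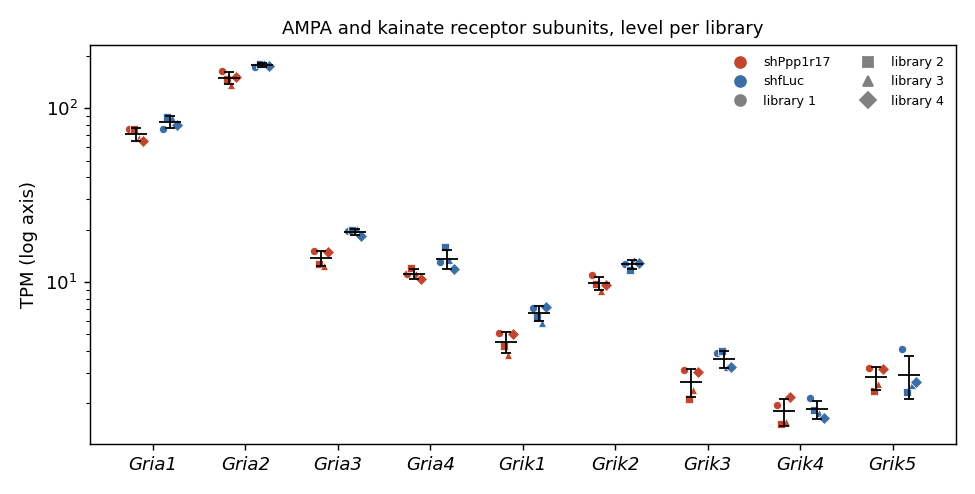
Level of each subunit gene in TPM on a log axis, shPpp1r17 (red, left) and shfLuc (blue, right), with 1 point per library and bars for mean ± SD (n = 4 each). Gria2 and Gria1 stand above 60 TPM in every library, Gria3, Gria4 and Grik2 between 8.865 and 20.1 TPM, and the other kainate genes below 8 TPM.

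The make-up of the AMPA family was alike in both groups for its leading subunits. Gria2 made up 60.9% ± 1.52 of the AMPA TPM in shPpp1r17 and 60.5% ± 1.11 in shfLuc, and Gria1, the subunit GluA1, 28.9% ± 1.64 in shPpp1r17 and 28.3% ± 0.995 in shfLuc (SD, n = 4 each). There were 2.11 ± 0.175 Gria2 transcripts per Gria1 transcript in shPpp1r17 and 2.14 ± 0.112 in shfLuc. Gria4 held 4.56% ± 0.391 in shPpp1r17 and 4.60% ± 0.441 in shfLuc. All these shares overlapped between the groups. Gria3 was the exception: it held 5.63%, 5.12%, 5.45% and 6.21% of the AMPA TPM in shPpp1r17 1 to 4, against 6.94%, 6.48%, 6.60% and 6.42% in shfLuc 1 to 4. Every shPpp1r17 library was below every shfLuc library in this share, by a mean of 5.61% in shPpp1r17 against 6.61% in shfLuc. No p is given for shares, which are sums over genes chosen with earlier results known.

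In the kainate family Grik2, which encodes GluK2, made up 45.5% ± 2.85 of the TPM in shPpp1r17 and 45.9% ± 3.24 in shfLuc (SD, n = 4 each). Grik1 held 20.9% ± 0.894 in shPpp1r17 and 23.9% ± 1.74 in shfLuc, and Grik3 12.3% ± 1.13 in shPpp1r17 and 13.0% ± 1.57 in shfLuc, with overlapping libraries for all 3 genes. The share of Grik4 was 8.03%, 7.58%, 8.18% and 9.42% in shPpp1r17 1 to 4, against 7.21%, 7.02%, 6.57% and 6.0004% in shfLuc 1 to 4. This share was higher in every shPpp1r17 library than in any shfLuc library. Its TPM overlapped, at 1.80 ± 0.312 in shPpp1r17 and 1.85 ± 0.220 in shfLuc, while the summed kainate TPM was lower in shPpp1r17. Grik4 and Grik5 together held 21.2%, 19.3%, 21.6% and 23.1% in shPpp1r17 1 to 4, against 20.9%, 15.95%, 16.2% and 15.6% in shfLuc 1 to 4. The libraries overlapped only through shfLuc 1.

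**Figure D2:**
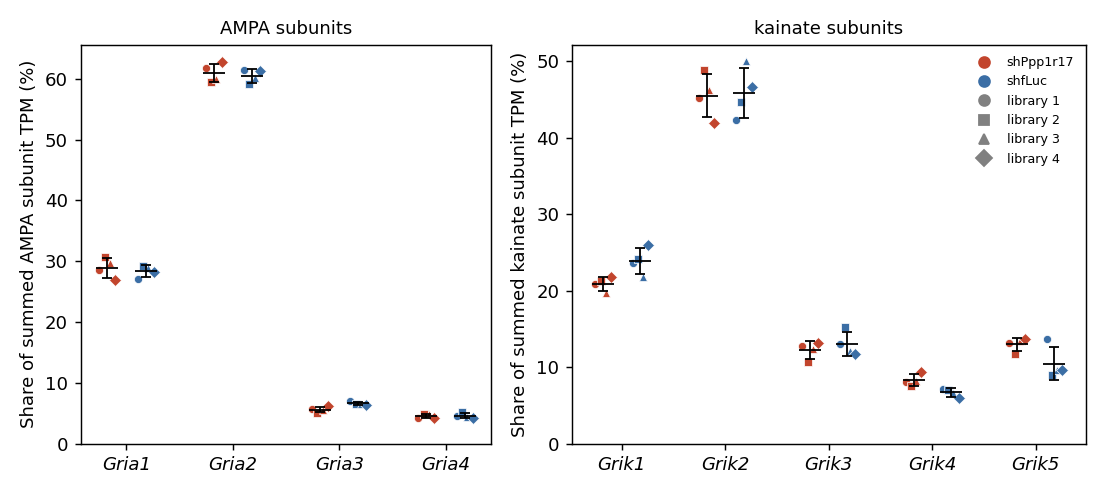
Share of each subunit in the summed TPM of its family in percent, AMPA genes on the left and kainate genes on the right, shPpp1r17 red and shfLuc blue, 1 point per library and bars for mean ± SD (n = 4 each). The Gria3 share is lower and the Grik4 share higher in all shPpp1r17 libraries, and the Gria2 share lies between 59.1% and 62.7% throughout.

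Of the 9 subunit genes 1 fell in shPpp1r17, Gria3, while 0 rose and 8 did not pass. The test was the quasi-likelihood test of edgeR, with p-values adjusted over all 17339 genes tested and a threshold of 0.05. Across all tested genes 2.66% were called lower and 3.39% higher, and 1 of 9 genes is too few to set against those shares. These were 462 lower and 588 higher genes, and on the log2(TPM + 1) scale limma called 488 lower and 309 higher. DESeq2 called 3 of the 9 lower (Gria3, Grik1 and Grik2) and 0 higher, and it called 6.08% of the 15322 genes with an adjusted p lower. At an unadjusted p under 0.05 in edgeR stood 6 of the 9, each with a fold change below 0, against 22.6% of all tested genes in either direction. The median log2 fold change was -0.16 over the 9 genes, -0.15 over the AMPA genes and -0.25 over the kainate genes, against 0.00427 over all genes tested. The groups stood apart in CPM, shPpp1r17 lower, for 4 of the 9 (Gria2, Gria3, Grik1 and Grik2), a pattern that 6.74% of all tested genes showed.

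Among the AMPA genes, Gria3 (ENSMUSG00000001986, chrX:41400854-41678601, plus strand, GRCm38) encodes GluA3, which pairs mostly with GluA2. It stood at 58.8, 50.5, 49.6 and 58.3 CPM in shPpp1r17 1 to 4, against 75.0, 73.8, 71.7 and 70.4 CPM in shfLuc 1 to 4. The groups did not overlap, and libraries 2 and 3 were the lowest. The log2 fold change was -0.42 (SE 0.08, 95% interval -0.59 to -0.25, adjusted p = 0.0138 in edgeR), a level 25.3% lower in shPpp1r17. The call was lost without shPpp1r17 3 (adjusted p = 0.0528), without shfLuc 2 (0.0583) and without shfLuc 3 (0.0572) in edgeR, with log2 fold changes of -0.38, -0.41 and -0.43. DESeq2 called Gria3 lower with each library left out (adjusted p at most 0.00324), while limma voom missed the threshold without shfLuc 2 (0.0642) or shfLuc 3 (0.0600). Without both shPpp1r17 2 and 3 the log2 fold change was -0.32 (adjusted p = 0.134 in edgeR).

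Gria2 (ENSMUSG00000033981, chr3:80681450-80802835, minus strand, GRCm38), whose transcript carries the edited Q/R site, stood at 594, 545, 519 and 578 CPM in shPpp1r17 1 to 4, against 615, 612, 609 and 623 CPM in shfLuc 1 to 4. The shfLuc libraries lay close together and all shPpp1r17 libraries lay below them, library 3 the farthest. The difference was small, with a log2 fold change of -0.14 (SE 0.06, 95% interval -0.27 to -0.00439), and did not pass (adjusted p = 0.206 in edgeR). Gria1 had 319, 320, 295 and 277 CPM in shPpp1r17 1 to 4, against 319, 362, 345 and 325 CPM in shfLuc 1 to 4. Here the groups overlapped and the lowest library was shPpp1r17 4, not 2 or 3. The log2 fold change was -0.16 (SE 0.07, 95% interval -0.31 to -0.00190, adjusted p = 0.215 in edgeR). Gria4, which encodes GluA4, stood at 40.7, 46.5, 45.8 and 41.6 CPM in shPpp1r17 1 to 4 and at 46.7, 51.6, 44.3 and 43.7 CPM in shfLuc 1 to 4, with a log2 fold change of -0.09 (95% interval -0.27 to 0.09) that did not pass (adjusted p = 0.551 in edgeR).

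Of the kainate genes that can form channels on their own, Grik1, which encodes GluK1, gave the most negative fold change of the 9. It stood at 13.4, 10.7, 10.2 and 13.3 CPM in shPpp1r17 1 to 4, against 18.2, 15.8, 13.8 and 17.7 CPM in shfLuc 1 to 4. The groups did not overlap, but shfLuc 3 lay just above shPpp1r17 1 and 4. The log2 fold change of -0.46 (SE 0.14, 95% interval -0.75 to -0.16) did not pass in edgeR (adjusted p = 0.0678) and passed in DESeq2 (-0.46, adjusted p = 0.0222), where it was lost in 5 of 8 fits with a library left out (adjusted p up to 0.126). Grik2 stood at 40.9, 35.7, 35.2 and 39.9 CPM in shPpp1r17 1 to 4, against 47.4, 41.9, 44.5 and 47.0 CPM in shfLuc 1 to 4. Libraries 2 and 3 were again the lowest. Its log2 fold change was -0.25 (SE 0.08, 95% interval -0.43 to -0.07), with an adjusted p of 0.0898 in edgeR and 0.0497 in DESeq2, where it was lost in 6 of 8 fits with a library left out (adjusted p up to 0.209). Grik3, which encodes GluK3, stood at 21.7, 14.8, 17.0 and 20.6 CPM in shPpp1r17 1 to 4 and 26.4, 26.0, 20.4 and 20.96 CPM in shfLuc 1 to 4, so that shPpp1r17 1 and 4 lay within the shfLuc range. The log2 fold change was -0.34 (SE 0.14, 95% interval -0.64 to -0.04, adjusted p = 0.166 in edgeR).

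Grik4 and Grik5, whose products need a partner from the first 3 kainate genes, were the only members with a fold change above 0, and neither passed. Grik4 had 8.79, 6.83, 7.23 and 9.61 CPM in shPpp1r17 1 to 4, against 8.73, 7.76, 7.18 and 6.96 CPM in shfLuc 1 to 4 (log2 fold change 0.09, 95% interval -0.26 to 0.43, adjusted p = 0.801 in edgeR). Its highest library was shPpp1r17 4 and its lowest shPpp1r17 2, so the spread within shPpp1r17 exceeded the difference between the groups. Grik5 had 6.02, 4.998, 5.81 and 5.85 CPM in shPpp1r17 1 to 4, against 8.47, 4.56, 4.27 and 5.11 CPM in shfLuc 1 to 4 (log2 fold change 0.02, 95% interval -0.47 to 0.50, adjusted p = 0.9754 in edgeR). The wide interval comes with 1 high library, shfLuc 1. Both signs turn on the log2(TPM + 1) scale, where Grik4 gave -0.03 and Grik5 -0.02.

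Seen library by library, libraries 2 and 3 were the lowest of shPpp1r17 for all 5 kainate genes and for Gria2 and Gria3. For Grik5 the margin was slight, with 5.81 CPM in library 3 and 5.85 CPM in library 4. Grik4 and Grik5 lay above their shfLuc mean in libraries 1 and 4, and Grik5 in library 3 as well. On the log2 scale Gria3 was at -0.31, -0.52, -0.55 and -0.32 in shPpp1r17 1 to 4. Grik1 was at -0.29, -0.61, -0.68 and -0.29, and Grik3 at -0.11, -0.66, -0.47 and -0.19. Grik2 was at -0.14, -0.34, -0.36 and -0.18, and Gria2 at -0.05, -0.17, -0.24 and -0.09. In libraries 1 and 4, where Ppp1r17 was at 54.8% and 54.5% of the shfLuc mean, these 5 genes were below their shfLuc mean too, by less. Gria4 ran the other way, with -0.19, -0.00104, -0.03 and -0.16, closest to the shfLuc mean in libraries 2 and 3. Gria1 followed neither order, at -0.08, -0.08, -0.19 and -0.29. Libraries 2 and 3 also stood apart from 1 and 4 in some glial markers, given below. They did so too in some markers of the dorsomedial hypothalamus: Brs3, given above, and Grp, at 45.7, 25.2, 22.7 and 55.0 TPM. Npvf did not split this way, at 92.6, 87.9, 99.5 and 116 TPM in shPpp1r17 1 to 4. The Ppp1r17 level was thus not all that differed. Which of these the subunit values follow was not tested. Of the 9 genes, 5, 6, 6 and 6 lay below the lowest shfLuc library in shPpp1r17 1 to 4, against 22.7%, 29.1%, 28.8% and 25.2% of all tested genes. Each shfLuc library set against the other 3 had 1, 1, 4 and 3 of the 9 below them, against 26.7%, 21.7%, 25.5% and 25.9% of all tested genes. These counts use a range of 3 libraries, so they are not like for like with those of shPpp1r17. Below the shfLuc mean lay 7, 9, 8 and 7 of the 9 in shPpp1r17 1 to 4, against 51.4%, 51.2%, 50.1% and 50.6% of all tested genes. For shfLuc 3 it was 8 of the 9, against 52.7%. In shPpp1r17 1 to 4 the median over the 9 was -0.11, -0.17, -0.24 and -0.18. The median over all tested genes was between -0.00858 and -0.00230 in the same libraries.

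**Figure D3:**
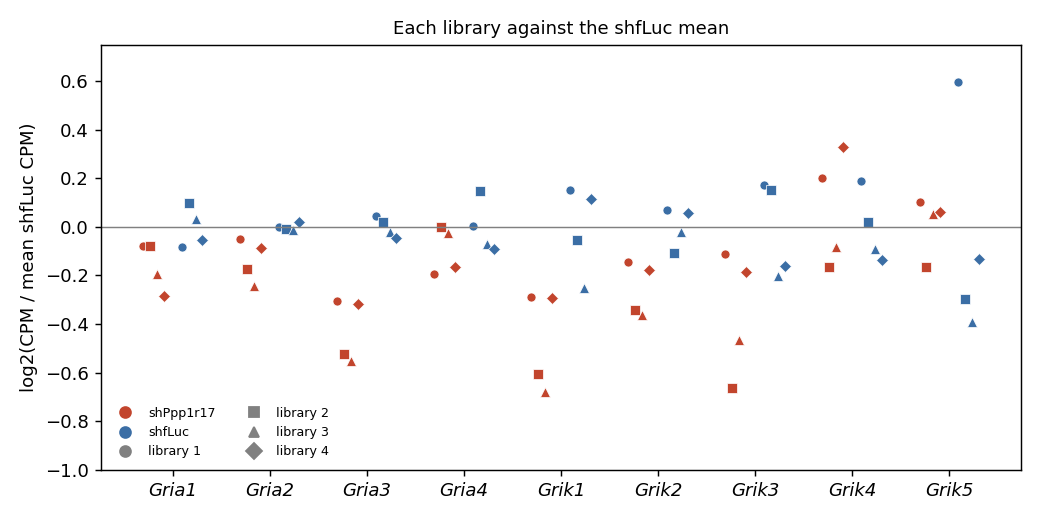
log2 ratio of the CPM in each library to the shfLuc mean, for the 9 subunit genes, shPpp1r17 red (left of each pair) and shfLuc blue, with the marker shape giving the library number. Squares and triangles of shPpp1r17 (libraries 2 and 3) lie lowest for Gria2, Gria3, Grik1, Grik2 and Grik3, and Grik5 is highest in shfLuc 1.

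Markers of cell types moved with the groups as well. Bulk RNA cannot tell fewer cells of a type apart from less RNA per cell. Among 8 neuron markers 2 fell, Syt1 and Eno2, and 1 rose, Tubb3, and their summed level was 2650 to 2947 TPM in shPpp1r17 and 2698 to 2870 TPM in shfLuc, with a median log2 fold change of 0.06. Of the 2 tested glutamatergic markers 1 fell, the vesicular glutamate transporter Slc17a6 (log2 fold change -0.33, SE 0.07, adjusted p = 0.0215 in edgeR). Slc17a7, the main transporter of the cortex, was at or near 0 TPM in both groups. Among 3 GABAergic markers 0 passed in edgeR, 2 had an unadjusted p under 0.05 and 1 fell in DESeq2, and their sum was 204 to 252 TPM in shPpp1r17 and 276 to 310 TPM in shfLuc. Among 8 oligodendrocyte markers 2 rose (sum 718 to 1243 TPM in shPpp1r17, 719 to 789 TPM in shfLuc), and among 8 microglia markers 3 rose (254 to 355 TPM in shPpp1r17, 191 to 249 TPM in shfLuc). In DESeq2 these counts were 3 and 4. At an unadjusted p under 0.05 in edgeR stood 5 of the oligodendrocyte and 6 of the microglia markers, and 0 of either list had a fold change below 0. Over all tested genes edgeR called 3.39% higher and 2.66% lower, and 22.6% had an unadjusted p under 0.05. Among 8 astrocyte markers 1 rose and 1 fell (1393 to 1621 TPM in shPpp1r17, 1539 to 1757 TPM in shfLuc), among 6 endothelial markers 1 rose (116 to 204 TPM in shPpp1r17, 98.1 to 129 TPM in shfLuc), and all 5 blood markers rose (2110 to 3873 TPM in shPpp1r17, 1115 to 1813 TPM in shfLuc). Among 5 markers of oligodendrocyte precursors, which also make AMPA and kainate receptors, 0 passed in edgeR, in DESeq2 or at an unadjusted p under 0.05 (17.3 to 21.03 TPM in shPpp1r17, 18.4 to 20.4 TPM in shfLuc). Some markers also split libraries 2 and 3 from 1 and 4. In shPpp1r17 1 to 4 Gfap had 62.4, 178, 125 and 59.1 TPM, and Mbp 225, 359, 399 and 217 TPM. Mobp had 74.2, 132, 139 and 77.2 TPM there, and Trem2 22.4, 42.4, 39.1 and 21.3 TPM. The direction was not shared by all: the astrocyte marker Slc1a3 was lowest in libraries 2 and 3, at 292, 223, 199 and 269 TPM. Another astrocyte marker, Gja1, did not split them, at 141, 139, 121 and 131 TPM. The part of these cell types in the subunit values was not tested.

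Few genes of the proteins that accompany the receptors passed the test. Of 14 tested AMPA auxiliary subunit genes, the TARP, cornichon, Shisa and related families that tune gating and delivery, 0 passed in either direction in edgeR or in DESeq2, with a median log2 fold change of 0.04. Syndig1 and Cacng4, the most abundant of them in shfLuc, gave 0.03 (adjusted p = 0.901) and 0.27 (adjusted p = 0.150) in edgeR. At an unadjusted p under 0.05 stood 3 of the 14, a share close to the 22.6% of all tested genes: Gsg1l, an auxiliary subunit that dampens AMPA currents (-0.43, adjusted p = 0.110 in edgeR), Cacng4 and Cacng8, a TARP (0.71, SE 0.32, adjusted p = 0.208 in edgeR); Gsg1l and Cacng8 were named after their values were seen. Both kainate auxiliary genes, Neto1 (-0.16, adjusted p = 0.373) and Neto2 (-0.05, adjusted p = 0.864), did not pass in edgeR, and 0 of them passed in DESeq2 or at an unadjusted p under 0.05.

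Among 5 genes of receptor assembly and editing 1 fell. Over all tested genes edgeR called 2.66% lower and DESeq2 6.08%. Frrs1l, which acts in the endoplasmic reticulum in the making of AMPA receptors, fell to 32.9, 19.9, 20.4 and 35.5 TPM in shPpp1r17 1 to 4, against 44.9, 44.2, 49.1 and 44.2 TPM in shfLuc 1 to 4 (log2 fold change -0.65, SE 0.16, adjusted p = 0.0356 in edgeR). It was the 1 gene of 5 in its list past the threshold (2 in DESeq2), with libraries 2 and 3 the lowest. Porcn, an acyltransferase of the same compartment found with AMPA receptor complexes and named here after its values were seen, did not pass (-0.58, SE 0.16, adjusted p = 0.0546 in edgeR). Of 17 tested scaffold and trafficking genes 1 rose and 0 fell: Abhd6, a hydrolase that restrains surface delivery of AMPA receptors, had 64.5, 77.0, 75.4 and 66.2 TPM in shPpp1r17 1 to 4 and 59.2, 63.1, 65.4 and 61.2 TPM in shfLuc 1 to 4 (log2 fold change 0.29, SE 0.08, adjusted p = 0.0428 in edgeR; higher in CPM in all shPpp1r17 libraries). Over all tested genes edgeR called 3.39% higher. At an unadjusted p under 0.05 in edgeR stood 4 of the 17, a share close to the 22.6% of all tested genes. Nsf, an ATPase that binds GluA2 and the most abundant gene of this list, gave -0.10 (adjusted p = 0.428 in edgeR), and Gripap1 0.05 (adjusted p = 0.717). The main editing enzyme of the Q/R site, Adarb1, named for that role, stood at 8.97 ± 1.25 TPM in shPpp1r17 and 9.64 ± 0.670 TPM in shfLuc (SD, n = 4 each; log2 fold change -0.00198, 95% interval -0.24 to 0.23), and Adar, the other active deaminase, gave 0.02 (adjusted p = 0.932 in edgeR).

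Some of the other glutamate receptor genes fell as well. Of 6 tested NMDA receptor genes 2 fell, Grin2a (log2 fold change -0.58, adjusted p = 0.0266 in edgeR) and Grin3a (-0.31, adjusted p = 0.0454), while the most abundant, Grin2b, did not pass (-0.38, adjusted p = 0.0626). The fold change of Grin2b depended on the scale. In TPM it stood at 20.2 ± 3.31 in shPpp1r17 and 20.9 ± 4.67 in shfLuc (SD, n = 4 each), with overlapping libraries. Of 7 tested metabotropic genes 1 fell, Grm5 (-0.49, adjusted p = 0.0347 in edgeR), and Grm7 did not pass (-0.15, adjusted p = 0.3596). DESeq2 called 3 NMDA and 2 metabotropic genes lower. Over all tested genes edgeR called 2.66% lower and DESeq2 6.08%. A fold change below 0 in edgeR was seen for 6 of 6 NMDA and 6 of 7 metabotropic genes. It was seen for 7 of the 9 AMPA and kainate genes, and for 49.4% of all tested genes. The list medians were -0.34 for NMDA and -0.24 for metabotropic genes on the log2 scale. No test of the difference between these lists and the 9 genes was made. In summed TPM the NMDA genes stood at 53.3 ± 3.85 in shPpp1r17 and 62.4 ± 6.22 in shfLuc (SD, n = 4 each), below the AMPA and above the kainate sum.

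**Figure D4:**
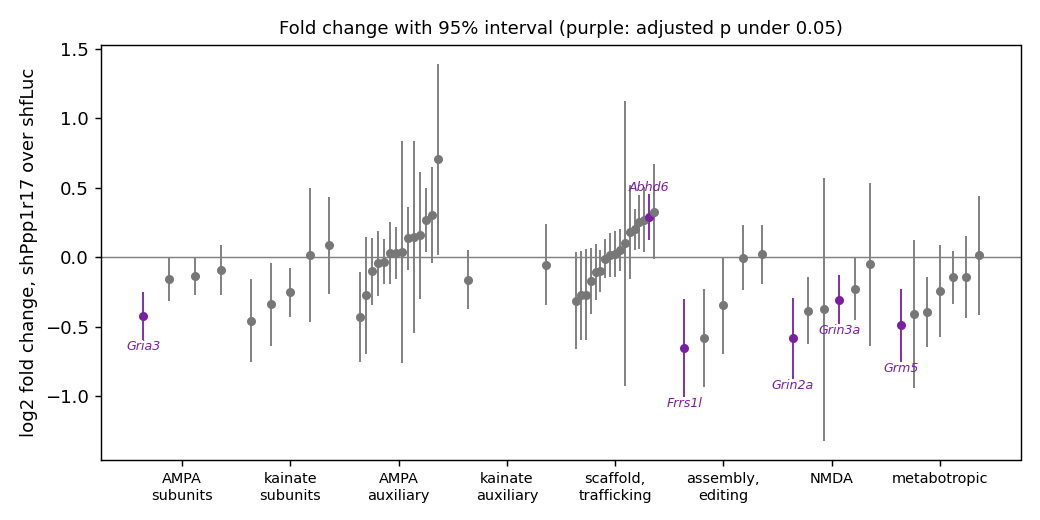
log2 fold change, shPpp1r17 over shfLuc, with its 95% interval for every tested gene of the AMPA and kainate families and of 6 related lists, each point 1 gene and purple where the adjusted p is under 0.05. Gria3 is the purple point among the 9 subunits, and Frrs1l, Grin2a, Grin3a and Grm5 lie below 0 while Abhd6 lies above.

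The genes whose levels ran most like Gria3 over the 8 libraries were Gng2, a G protein subunit, St8sia3, a brain sialyltransferase, and Syt1, the calcium sensor of vesicle release. Their root mean square difference from Gria3 was 0.04, 0.04 and 0.05 on the log2 scale, against a median of 0.33 over the 10220 genes compared. All 3 fell (log2 fold changes -0.40, -0.39 and -0.37, adjusted p = 0.0112, 0.0177 and 0.0161 in edgeR), as genes selected for likeness to a gene that fell would. For Gria2 the nearest were the splicing genes Sf3b1 and Rbm39 and the glycolytic gene Eno1, at 0.03 each against a median of 0.20. For Grik2 they were Gabrb1, a GABA-A receptor subunit, Becn1, an autophagy gene, and Pcmtd2, at 0.04 each against a median of 0.24.

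Earlier results of these libraries had linked lower genes to a motif in the 3' UTR, and the subunit genes were searched for 2 overlapping 7-base parts of it, CTCTGAT and TCTGATA, on the transcript strand. The longest annotated 3' UTR of each gene was used (GENCODE M21, GRCm38). A match was found in 4 of the 9 genes, against 18.7% of 14261 tested genes and 55.0% of 436 genes called lower, which are not independent of how the motif was found. The sites are shown because they fall in Gria2, Grik2, Grik3 and Grik4 and not in Gria3, the gene that fell, with the match in capitals.
Gria2 (chr3:80683036-80683064, minus strand): tataaatcatgCTCTGATgtgttcccagc
Gria2 (chr3:80682246-80682274, minus strand): gtcaagaatttTCTGATAcaaaattccta
Grik2 (chr10:49100203-49100231, minus strand): cactctgacatTCTGATAtgtcagctgaa
Grik3 (chr4:125709559-125709587, plus strand): tggatgttggtCTCTGATcagggaccagg
Grik4 (chr9:42519148-42519176, minus strand): tctatgcaattTCTGATAgtaacttagaa
The searched 3' UTRs differ in length, from 304 bases in Grik1 and 520 in Grik5 to 7268 in Gria2, 6275 in Grik2 and 6082 in Grik3, and a longer one holds more 7-base words of any kind. Gria3 was searched over 2264 bases, Gria1 over 2598 and Gria4 over 2256. At none of these sites did both parts overlap. Of the receptor-related and similar-pattern genes that fell, Frrs1l, Grin2a, Grin3a, Grm5, Gng2 and St8sia3 each held a match, while Syt1 held 0. The searched 3' UTRs ran from 3248 bases in Gng2 to 9929 in Grin2a for those with a match, and Syt1 had 2890. These genes were named because they fell, or ran like a gene that fell, in the libraries that gave the motif. Their matches are therefore no independent support for it. Other named genes were searched as well. Porcn held 1 match in 328 bases and the targeted Ppp1r17 held 4 in 1133 bases, while Abhd6, which rose, held 0 in 1119 bases. Porcn was named after its values were seen, so its match is no independent support either. A match is a description of these letters in the annotation and not a measured site.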

How the data were processed

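Per the labels' protocols, total RNA was isolated with PicoPure and sequencing libraries were prepared with SMARTer chemistry. The deposited expected counts (estimated reads per gene) and TPM values are the authors', per the file headers, as are a length and an effective length per gene and library. Tools named in the submitters' processing notes are DRAGEN, bcl2fastq, limma and edgeR, without settings; the sources used here do not give the authors' genome build. The lengths differ between libraries for 16634 of the 55487 genes. Symbols matched 55141 identifiers. Coordinates and sequences are from GENCODE M21 (GRCm38), which may not be the authors' build; it holds 55227 of the identifiers.

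Expected counts were rounded and tested with edgeR 4.0.16 (R 4.3.3): TMM, minimum count 10, minimum total count 15, quasi-likelihood test with the group as the single term, Benjamini-Hochberg adjustment over 17339 genes, threshold 0.05. Standard errors were derived from each fold change with its F value. Alternatives used DESeq2 1.42.0, limma 3.58.1 and the settings in the closing section. Replicate pairs differed beyond counting noise, with a chi-square of 7.37 to 40.7 per degree of freedom.

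The subunit genes, lists and tests were chosen with earlier results of these data known. Genes named were the 9 subunits, Ppp1r17, from each list those past the threshold and the 2 most abundant, and for Gria3, Gria2 and Grik2 the 3 genes of most similar pattern (average log2 CPM of at least 3). Of the marker lists, counts and the genes that bear on a result are given. One further group of receptor genes is not reported here.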

Additional observations from a re-analysis of the deposited data

Results flagged for a closer look

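Of 81 groups of 4 libraries checked for a library far from the others, 3 stood out, and chance alone marks about 1 in 20. All 3 concern shfLuc 1. Grik5 took 13.7% of the kainate TPM there, against 8.93% to 9.63% in the other shfLuc libraries. Grik4 and Grik5 together took 20.9%, against 15.6% to 16.2%. The deposited length of Grik4 was 5452 bases there and 5887 bases in the other 7 libraries. Without shfLuc 1 the log2 fold change of Grik5 was 0.28 (adjusted p = 0.416 in edgeR).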

How the results depend on the processing

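The count of subunit genes called lower, 1 in edgeR, was 3 in DESeq2, 0 without the shPpp1r17 libraries 2 and 3, and 0 to 2 with single libraries left out; the count called higher was 0 throughout. It was 0 without shPpp1r17 3, shfLuc 2 or shfLuc 3 (3, 3 and 4 of the 9 then had p under 0.05 before adjustment in edgeR) and 2 without shPpp1r17 4, when Grik1 passed. Gria3 passed in 17 of 21 alternatives, with log2 fold changes from -0.50 to -0.32. Gria1, Gria2, Gria3, Gria4, Grik1, Grik2 and Grik3 kept a fold change below 0 in all 21. Grik4 turned below 0 on log2(TPM + 1), at -0.0282, on log2(TPM + 0.1), at -0.0440, and without shPpp1r17 4, at -0.00765 (range with single libraries left out -0.00765 to 0.159). Grik5 turned below 0 on log2(TPM + 1), at -0.0215, on log2(TPM + 0.1), at -0.0236, and in 4 of the fits with a library left out (range -0.0926 to 0.285). With the length trend of each library removed Gria3 moved to -0.36 (adjusted p = 0.0310 in edgeR), Gria2 to -0.08 and Gria1 to -0.09. The cause of these changes was not tested. With the replicate number as a block in edgeR, Gria3 gave -0.42 (adjusted p = 0.0283) and 1 subunit gene passed; 302 genes in all were lower, against 462 without it. Same-numbered libraries shared little beyond the number (correlations of deviations -0.02, 0.06, -0.00826 and 0.15). Over all genes, DESeq2 called 931 lower and 994 higher, against 462 and 588 in edgeR, and edgeR called 0 without shfLuc 2 or shfLuc 3. On log2(TPM + 1) the split was 488 lower and 309 higher, and the median of all genes was -0.06. Grik4 and Grik5 rest on the fewest reads of the 9.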
